A study of Homo sapiens with 2 samples.

Results

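The family of miR-28, miR-151 and miR-708 is a group of 7 mature microRNAs, hsa-miR-151a-3p, hsa-miR-151a-5p, hsa-miR-151b, hsa-miR-28-3p, hsa-miR-28-5p, hsa-miR-708-5p and hsa-miR-708-3p, out of 2656 mature microRNAs in the deposited table. They were taken by name. The family was chosen by its shELOVL5 over shLuc ratios and arm counts in these same libraries, so those values are given as a description, with no test. All 7 members were in the table, 5 had at least 100 counts over both libraries, and 1 had no count in either. The libraries were made from cells of MDA-MB-231, a long-established line of human triple-negative breast cancer, transduced with an shRNA against ELOVL5, a fatty acid elongase (shELOVL5), or with a control shRNA, shLuc. Each condition had 1 library, so a difference between them cannot be set against the spread of repeat cultures, and p-values are not reported. Both conditions were transduced and carry an shRNA, and no library of untransduced cells was analysed here. ELOVL5 mRNA is not measured by small RNA sequencing, so the knockdown itself could not be checked from these files.

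A microRNA hairpin is cut by Drosha and Dicer into a short duplex of its 5p and 3p arms, and usually 1 arm is kept in an Argonaute protein while the other is mostly lost. Both arms come from the same transcript, and each arm reads its targets through its own seed, bases 2 to 8. The genes of this family lie inside larger genes. The miR-151a hairpin lies within PTK2, the gene of focal adhesion kinase, and was described together with that kinase in the migration of liver cancer cells. The miR-28 hairpin lies within LPP, a LIM protein of focal adhesions, and its arms were described with different effects in colorectal cancer cells. The miR-708 hairpin lies within TENM4, a teneurin, and miR-708 was described as a suppressor of breast cancer metastasis.

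The RefSeq table (GRCh38.p14) gave sequences for 3 of the 7 members. They are shown, with hsa-miR-3139, because they show how the 3p arms of miR-28 and miR-708 relate and which seed hsa-miR-708-5p carries. Capitals mark the seed.
hsa-miR-28-3p: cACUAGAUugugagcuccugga
hsa-miR-708-3p: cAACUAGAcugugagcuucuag
hsa-miR-708-5p: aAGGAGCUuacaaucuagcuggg
hsa-miR-3139: uAGGAGCUcaacagaugccuguu

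The 3p arms of miR-28 and miR-708 have different seeds, ACUAGAU and AACUAGA, that overlap with an offset of 1 base. Bases 2 to 7 of hsa-miR-28-3p, ACUAGA, are bases 3 to 8 of hsa-miR-708-3p. They also share the run UGUGAGCU, at bases 9 to 16 of hsa-miR-28-3p and 10 to 17 of hsa-miR-708-3p. hsa-miR-708-5p and hsa-miR-3139 have the same seed, AGGAGCU. The seeds of the other 4 members, hsa-miR-28-5p, hsa-miR-151a-5p, hsa-miR-151a-3p and hsa-miR-151b, were not compared here. Other microRNAs, family members among them, may therefore carry the same seeds. hsa-miR-3139 was put among the relatives as sharing the seed of hsa-miR-28-5p, a match not checked from sequence here.

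On GRCh38, in GENCODE release 29, MIR28 lies on chromosome 3 at 188688781 to 188688866, on the plus strand within LPP. MIR708 lies on chromosome 11 at 79402022 to 79402109, on the minus strand within TENM4. MIR151A lies on chromosome 8 on the same strand as PTK2. None of these 3 hairpins overlaps an annotated exon of another gene, so they are intronic in their hosts. MIR151B lies on chromosome 14 at 100109419 to 100109514, on the strand opposite to EVL, an actin regulator, and 140 bases from MIR342, which lies in an EVL intron on the other strand. The mature miR-151b resembles the 5p arm of miR-151a closely, so reads of these microRNAs may be shared, and the sources used here do not say how such reads were assigned.

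Depth was similar, at 6811811 microRNA counts for shELOVL5 against 7109272 for shLuc. In these totals only the highest count was kept for a microRNA listed under several precursors, and library shares are shares of them. Summed over all precursors, the totals were 8544678 for shELOVL5 and 8802906 for shLuc, and shares of those would be lower for the family members. Levels are counts per 1000000 counts (CPM) scaled with TMM factors, which were 1.01 for shELOVL5 and 0.988 for shLuc. hsa-miR-100-5p, the most abundant microRNA, made up 21.8% of the library with shELOVL5 and 24.5% with shLuc, and hsa-miR-200c-3p, an epithelial microRNA, had 450 and 467 counts. A list of 5 blood cell microRNAs summed to 2197 counts with shELOVL5 and 2792 with shLuc. hsa-miR-486-5p made up 2146 and 2788 of them. Of the other 4 in that list, hsa-miR-142-3p had 45 and 2 counts, hsa-miR-451a 6 and 2, and hsa-miR-144-3p and hsa-miR-223-3p none in either library. The part of these microRNAs in the results on the family was not tested.

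hsa-miR-151a-3p carried most of the family. The shELOVL5 library held 85479 counts of it (12393 CPM), against 136053 (19377 CPM) with shLuc. Its share of the library was 1.255% with shELOVL5 (exact Clopper-Pearson 95% interval 1.247 to 1.263%), against 1.91% with shLuc (1.90 to 1.92%). Ranked by counts, it stood 18th in shELOVL5 and 13th in shLuc. The CPM ratio, shELOVL5 over shLuc, was 0.640 (95% counting interval 0.634 to 0.645), or a log2 ratio of -0.64. All intervals cover counting error only, because PCR copies without molecular identifiers are not independent molecules and no second culture was sequenced.

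The other arm of the same hairpin was near level. hsa-miR-151a-5p had 2202 counts (319 CPM) with shELOVL5 and 2294 (327 CPM) with shLuc. Its ratio was 0.977 (0.921 to 1.04), an interval that includes 1. With total count scaling its log2 ratio turned from -0.033 to 0.0026, so no direction is given for this arm.

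For hsa-miR-151b the counts were 318 (46.1 CPM) with shELOVL5 and 357 (50.8 CPM) with shLuc, at a ratio of 0.907 (0.777 to 1.06). Its interval includes 1 as well. With its counts added to hsa-miR-151a-5p, the log2 ratio of the sum was -0.047. The microRNA encoded next to it, hsa-miR-342-3p, was named after its values were seen. It had 166 counts in shELOVL5 and 284 in shLuc, a ratio of 0.595 (0.488 to 0.723), and its own 5p arm had 8 and 12 counts.

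The miR-28 hairpin had the same order of arms. hsa-miR-28-3p, whose sequence is shown above, had 6399 counts (928 CPM) with shELOVL5 and 8221 (1171 CPM) with shLuc. Its ratio was 0.792 (0.767 to 0.819), a log2 ratio of -0.34. Its partner hsa-miR-28-5p had 1777 counts (258 CPM) with shELOVL5 and 1863 (265 CPM) with shLuc, giving a ratio of 0.971 (0.909 to 1.04). The 3p interval lay below 1 and the 5p interval included 1, as in the miR-151a hairpin.

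The miR-708 hairpin was close to the limit of detection in both libraries. There were 6 counts of hsa-miR-708-5p (0.870 CPM) with shELOVL5 and 7 (0.997 CPM) with shLuc, and the ratio of 0.873 had an interval of 0.242 to 3.03. A difference of the size seen for hsa-miR-151a-3p was not detectable at this depth. hsa-miR-708-3p was at 0 in each library. For 0 counts a limit of 3 counts was set, which is 0.435 CPM for shELOVL5 and 0.427 CPM for shLuc. The exact 95% interval for the library share of hsa-miR-708-3p reached higher, to 5.4e-05% with shELOVL5 and 5.2e-05% with shLuc. No arm balance can be given for this hairpin.

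**Figure D1:**
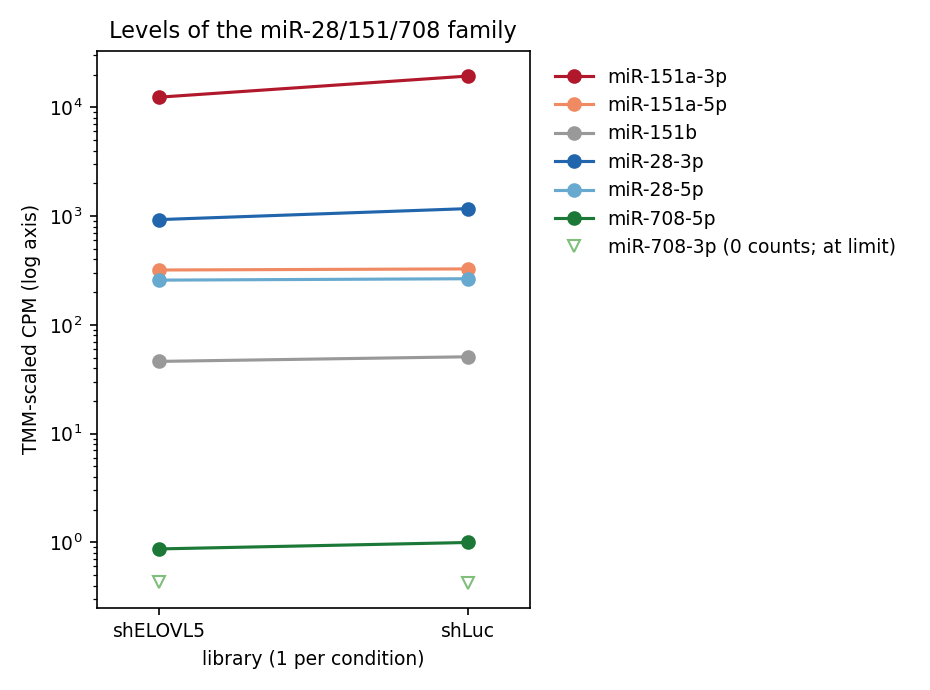
TMM-scaled CPM (log axis) of the 7 family members in the shELOVL5 and shLuc libraries, 1 library each. Points are single values joined by member, and open triangles mark the limit of 3 counts set for miR-708-3p at 0 counts. miR-151a-3p stood at 12393 CPM in shELOVL5 and 19377 CPM in shLuc, while the lines of miR-151a-5p and miR-28-5p were nearly flat.

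Ordered by CPM, the members ran from hsa-miR-151a-3p through hsa-miR-28-3p, hsa-miR-151a-5p, hsa-miR-28-5p and hsa-miR-151b to hsa-miR-708-5p and hsa-miR-708-3p, and this order was the same in both libraries. Ligation and amplification differ between small RNA sequences, so the order describes counts and not numbers of molecules. hsa-miR-151a-3p gave 88.9% of the family's 96181 counts in shELOVL5 and 91.4% of its 148795 counts in shLuc. hsa-miR-28-3p gave 6.65% and 5.53%. The other 5 members gave the remainder.

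The sums by arm differed in the same way as the single members. The 3p arms held 91878 counts in shELOVL5 and 144274 in shLuc, a ratio of 0.648 (0.643 to 0.654). Without hsa-miR-151a-3p, which sets this sum, the 3p ratio was that of hsa-miR-28-3p alone. The 4 members on the 5p side, hsa-miR-151b included, held 4303 counts in shELOVL5 and 4521 in shLuc, a ratio of 0.969 (0.929 to 1.01).

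**Figure D2:**
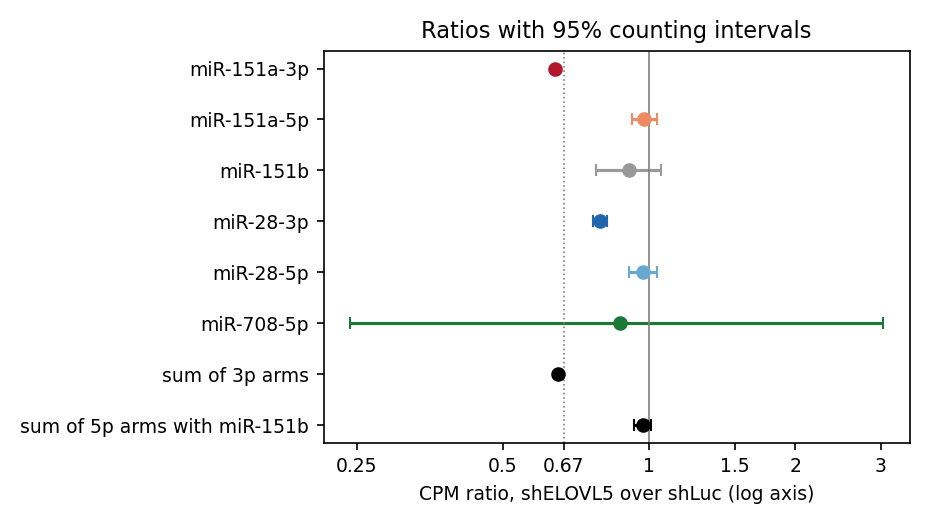
CPM ratio, shELOVL5 over shLuc, on a log axis for the 6 members with counts and for the sums by arm; bars are 95% counting intervals, the solid line is a ratio of 1 and the dotted line a 1.5-fold lower level. Only miR-151a-3p (0.640), miR-28-3p (0.792) and the sum of 3p arms (0.648) have intervals that exclude 1, and the interval of miR-708-5p runs from 0.242 to 3.03.

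The family was then set against the 191 expressed microRNAs, those with an unscaled mean of at least 50 CPM and at least 100 counts over both libraries. Of the 5 members with at least 100 counts, 1 (hsa-miR-151a-3p) was at least 1.5-fold lower and 0 were at least 1.5-fold higher, where 0.524% of the expressed microRNAs were lower, 3.14% higher and 3.66% different in either direction by that size. A ratio of 0.8 or lower, a limit added after the values were seen, was found for 2 of the 5 members and for 9.95% of the expressed microRNAs. Intervals below 1 were found for 2 of the 5 members and for 41.9% of the expressed microRNAs. The median log2 ratio was -0.14 over the 5 members and -0.033 over the expressed microRNAs. The filters differ, as the 5 members did not have to reach 50 CPM. Their median is the value of hsa-miR-151b, which at 48.4 CPM is not among the 191. As these ratios entered the choice of the family, nothing is read from the shares.

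Among the 191, hsa-miR-151a-3p had the lowest ratio. It is then necessarily the lowest of the 19 of them with an unscaled mean of at least 10000 CPM, so that rank adds nothing. As its ratio entered the choice of the family, nothing is read from the rank among the 191. hsa-miR-28-3p was 18th from the lowest ratio, while hsa-miR-28-5p and hsa-miR-151a-5p were 92nd and 95th, near the middle. The 3 expressed microRNAs nearest to hsa-miR-151a-3p in log2 ratio, a comparison over just 2 libraries, were hsa-miR-99b-5p at -0.56, hsa-miR-181a-2-3p at -0.54 and hsa-miR-183-5p at -0.51. hsa-miR-99b-5p was also nearest in abundance, with 85758 counts in shELOVL5 and 128680 in shLuc. With TMM scaling it stood just inside the 1.5-fold limit at 1.47-fold lower. DESeq2 size factors, which were 1 for both libraries, shift every log2 ratio by -0.026 and take it past that limit. The next nearest in abundance lay elsewhere, hsa-miR-30d-5p at a log2 ratio of -0.16 and hsa-miR-125b-5p at 0.32.

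**Figure D3:**
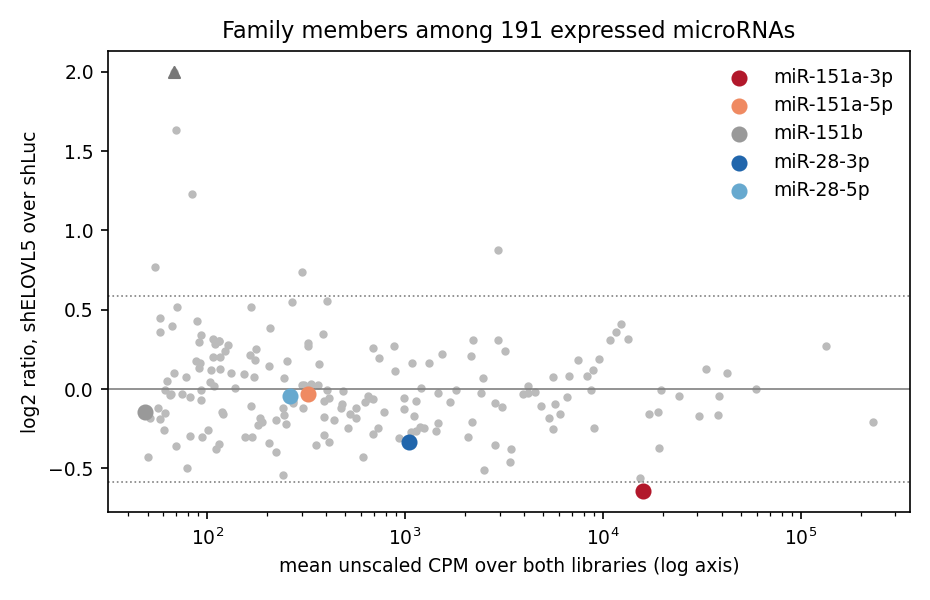
Log2 ratio, shELOVL5 over shLuc, against the unscaled mean CPM of both libraries (log axis) for 191 expressed microRNAs in grey and the 5 family members with at least 100 counts in colour; miR-151b lies just under the 50 CPM limit, dotted lines mark 1.5-fold, and the triangle is 1 microRNA above the axis at 7.06. miR-151a-3p is the lowest point at -0.64, and both 5p arms lie near 0.

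Arm shares were compared within each hairpin, where library scaling cancels. In miR-151a the 3p arm took 97.5% of 87681 counts in shELOVL5 (exact 95% interval 97.4 to 97.6%) and 98.3% of 138347 counts in shLuc (98.3 to 98.4%). The 5p arm therefore took 2.51% in shELOVL5 and 1.66% in shLuc. There were 38.8 counts of the 3p arm for each 5p count in shELOVL5 and 59.3 in shLuc. The arm shift, defined as the log2 3p to 5p ratio in shELOVL5 minus that in shLuc, was -0.61 (-0.70 to -0.53), or 1.53-fold toward the 5p arm.

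In miR-28 the arms were less unequal. The 3p arm took 78.3% of 8176 counts in shELOVL5 (77.4 to 79.2%) and 81.5% of 10084 counts in shLuc (80.8 to 82.3%). There were 3.60 counts of the 3p arm for each 5p count in shELOVL5 and 4.41 in shLuc, an arm shift of -0.29 (-0.40 to -0.19). The counting intervals of both hairpins lay wholly on the side of the 5p arm. In each hairpin the more abundant 3p arm had the larger change in counts. Arm counts entered the choice of the family, so nothing is read from these intervals. The shift of miR-151a with hsa-miR-151b added to its 5p arm was -0.60.

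The background was 86 hairpins whose arms are each listed under 1 precursor, with at least 1000 counts in all and at least 10 counts of the less abundant arm in each library. An arm shift of at least 1.5-fold toward 5p was found in 1 of the 2 family hairpins that could be compared and in 3.49% of the 86, and a shift of that size toward 3p in 0 of the 2 and in 9.3% of the 86. A shift of 1.5-fold in either direction was found in 12.8% of the 86. Intervals below 0 were found for both family hairpins and for 19.8% of the 86, and intervals above 0 for 0 of the 2 and for 22.1% of the 86. The median shift over the 86 was -0.020, the quartiles were -0.21 and 0.24, and 44 hairpins shifted toward 5p and 42 toward 3p. By absolute size miR-151a ranked 11th and miR-28 32nd. Nothing is read from these shares either, since arm counts entered the choice of the family.

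The hairpins with larger shifts than miR-151a had fewer counts. The 10 hairpins ahead of it had at most 100 counts of the less abundant arm in the library with fewer, against 2202 in miR-151a. The 5 largest shifts were 1.09 in miR-183 (0.65 to 1.55), 0.91 in let-7c (0.18 to 1.67), 0.89 in miR-365a (0.22 to 1.57), -0.84 in miR-625 (-1.33 to -0.35) and 0.77 in miR-374a (0.17 to 1.39), all with wider intervals than that of miR-151a. With at least 1000 counts of the less abundant arm in each library, a limit added after the values were seen, 18 hairpins remained. Of them 5.56%, which is miR-151a alone, reached 1.5-fold. The limit removes all 10 hairpins with larger shifts, so the first place of miR-151a among the 18 was fixed by it. Nothing is read from this share. In that group miR-28 ranked 5th by size. Next after miR-151a came miR-27a at 0.43 (0.38 to 0.48) and miR-330 at -0.41 (-0.54 to -0.28).

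**Figure D4:**
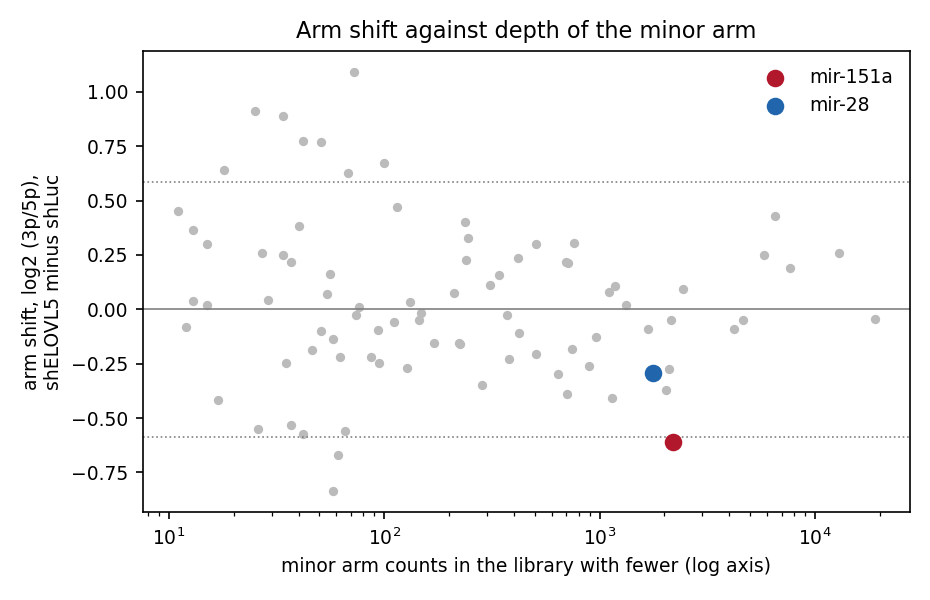
Arm shift (log2 of the 3p to 5p ratio, shELOVL5 minus shLuc) against the counts of the less abundant arm in the library with fewer of them (log axis) for 86 hairpins, with miR-151a and miR-28 in colour; dotted lines mark 1.5-fold. The shifts larger than that of miR-151a (-0.61) all lie at 100 counts or fewer.

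Whether the less abundant arm followed the more abundant one was looked at after the values were seen. In 8 of the 86 hairpins the more abundant arm had a ratio of 0.8 or lower, and miR-151a and miR-28 were among them. In 3 of the 8 the less abundant arm was within 1.1-fold of level, namely miR-151a (ratio 0.977), miR-28 (0.971) and miR-130b (0.978). In miR-27b the less abundant arm stood at 0.761 beside 0.772 for the more abundant arm, so the arms moved alike. The miR-99b and miR-23b hairpins had less abundant arms at 0.807 and 0.808. In miR-183 the less abundant arm stood at 1.499, from 106 counts in shELOVL5 and 72 in shLuc, and in miR-182 at 0.577, with 17 counts in the library with fewer. Hairpins with 1 arm at a ratio of 0.8 or lower and the other higher by at least the same factor numbered 2 of the 86, miR-183 and miR-877, and neither is of the family.

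**Figure D5:**
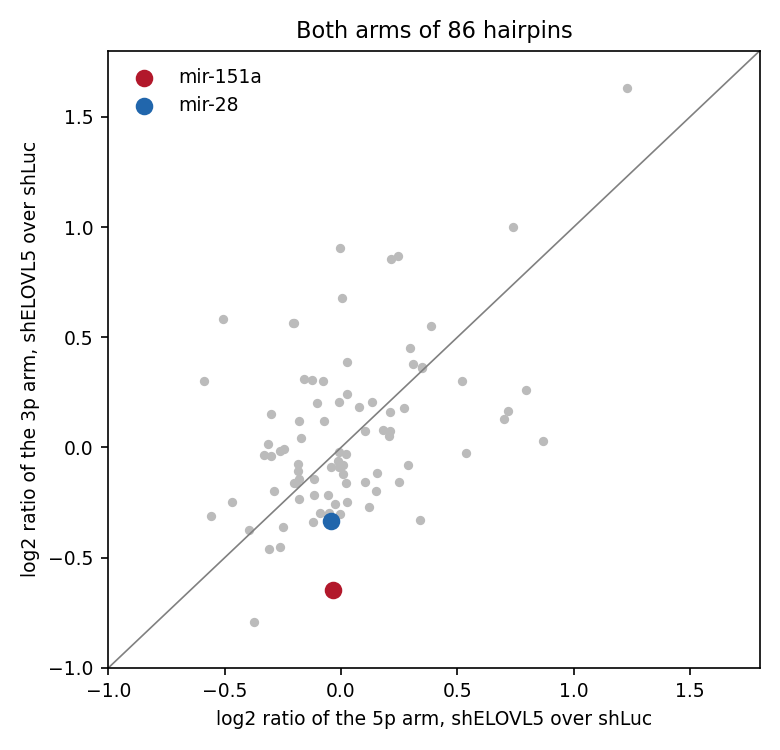
Log2 ratio, shELOVL5 over shLuc, of the 3p arm against that of the 5p arm for 86 hairpins, with miR-151a and miR-28 in colour; on the diagonal both arms have the same ratio. Both family hairpins lie below the diagonal with a 5p value near 0, at 3p values of -0.64 for miR-151a and -0.34 for miR-28.

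The related microRNAs looked at outside the 7 members had few counts. hsa-miR-3139, which shares the seed of hsa-miR-708-5p as printed above, had 1 count in shELOVL5 and 1 in shLuc. The miR-95 hairpin, like those of miR-28 and miR-151a described as derived from a LINE-2 repeat, had 26 counts of its 3p arm in shELOVL5 and 37 in shLuc, a ratio of 0.715 (0.416 to 1.21), and 1 and 0 counts of its 5p arm. None of these 3 reached 100 counts over both libraries.

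Of 16 other microRNAs of chromosome band 8q24, where MIR151A lies, 5 had at least 100 counts and 7 had none in either library. None of the 5 was 1.5-fold different in either direction, where 3.66% of the 191 expressed microRNAs were. The filters differ, as the 5 did not have to reach 50 CPM, and 2 of them are among the 191. With so small a share and so few microRNAs, nothing is read from this count. Their median log2 ratio was -0.11, and that of hsa-miR-151a-3p was -0.64. MIR30B and MIR30D lie 5.93 Mb from MIR151A, and MIR937 lies 3.08 Mb from it. A link of these values with position was not tested. hsa-miR-30d-5p had 111121 counts in shELOVL5 and 126196 in shLuc, a ratio of 0.896 (0.889 to 0.904). hsa-miR-30b-5p had 2664 and 2434 counts, a ratio of 1.11 (1.05 to 1.18), so these neighbours lay on opposite sides of 1. hsa-miR-937-3p stood at 0.846 (0.677 to 1.05), hsa-miR-30b-3p at 0.923 (0.721 to 1.18) and hsa-miR-30d-3p at 1.24 (0.962 to 1.60), each with an interval that includes 1. The others had 1 to 9 counts in at least 1 library, among them hsa-miR-937-5p with 9 counts in shELOVL5 and 2 in shLuc.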

How the data were processed

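Small RNA libraries of MDA-MB-231 cells, 1 with shELOVL5 and 1 with shLuc, were made from total RNA (miRNeasy Micro kit, NEBNext small RNA kit) and read on a NextSeq, per the labels' protocols, which mention frozen tumor material where the sample labels give the cell line. The authors deposited unnormalized read counts, with a line for each mature microRNA of each precursor. FastQC 0.11.9, cutadapt 2.10 and Bowtie 1.1.1 come from the submitters' processing notes. No source used here gives the counting program, the annotation release or the handling of reads with several matches.

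The 2886 lines were reduced to 2656 microRNAs by the highest value over precursors, and each member had 1 line. Scaling used TMM (edgeR 4.0.16, R 4.3.3). Ratio intervals are exact Clopper-Pearson intervals of 1 library's share of both counts. Arm shift intervals use the log odds with its counting error where all 4 counts reach 100, and otherwise the exact conditional interval (scipy 1.17.1). With 1 library per condition no test was run. The members, lists and limits were chosen with earlier results of these data known. Named microRNAs were the members, the lists, the 3 nearest to hsa-miR-151a-3p in ratio and in abundance, and the hairpins with the largest arm shifts or opposite arms. Others are marked as named after their values were seen. Positions are from GENCODE release 29 and sequences from RefSeq. Alternatives were total count and DESeq2 1.42.0 scaling, the sum over precursors, 5 CPM added, other filters and size limits, and miR-151b counted with miR-151a-5p.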

Additional observations from a re-analysis of the deposited data

How the results depend on the processing

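No paired analysis was possible because there is just 1 library of each kind, and leaving a library out would leave nothing to compare. Of 57 alternative values, 42 stayed within the counting interval, or within 1.5 times for a count, 15 moved and none changed the direction of a 1.5-fold difference. Some of the 42 could not move. The sum over precursors leaves the arm shifts and the hairpin count as they are, because those arms are each listed under 1 precursor. The DESeq2 size factors were 1 for both libraries, so that alternative compared raw counts with no correction for depth. Every log2 ratio shifted by 0.036 under total count scaling and by -0.026 under DESeq2 size factors. The log2 ratio of hsa-miR-151a-3p was then -0.61 and -0.67, and that of the summed 3p arms -0.59 and -0.65. Family members past the size limit numbered 1 at 1.5-fold, 0 at 2-fold and 2 at a ratio past 0.8 or its inverse, a limit added after the values were seen. Expressed microRNAs past it numbered 7 of 191 at 1.5-fold, 3 at 2-fold and 38 past 0.8 or its inverse. With total count scaling 9 of the 191 passed 1.5-fold, and with DESeq2 size factors 8. With a mean of at least 10 CPM, 21 of 313 passed 1.5-fold, and with at least 1000 CPM, 2 of 68. With at least 1 count in each library as the sole filter, 369 of 1024 passed. Hairpins past the size limit numbered 11 of 86 at 1.5-fold, 1 at 2-fold and 39 of 145 with at least 100 counts per hairpin. They numbered 17 of 116 with arms listed under several precursors. With at least 1000 counts of the less abundant arm, a limit also added after the values were seen, 1 of 18 passed, miR-151a. Arm shifts do not depend on scaling. Depth limits miR-708 and miR-151b, and the lack of a second culture limits every comparison.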
